A study of Mus musculus with 12 samples.

Results

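The 7 BH3-only death genes Bid, Bcl2l11, Bad, Bmf, Bik, Bbc3 and Pmaip1 were followed in mouse liver. They were chosen by symbol and matched to Ensembl gene identifiers. They are 7 of the 40551 genes in the counts, of which 24525 had at least 1 read. All 7 passed the filter on low counts, as did 15070 genes in all. The data are total RNA-seq counts of 12 livers, 3 of each genotype. WT livers were compared with Mcl1Δhep livers (labelled Mcl1 KO), which lose Mcl1 where Cre is driven by the albumin promoter, that is, mainly in hepatocytes. Sting1-/- livers (Sting1 KO) are labelled as lacking the gene of the DNA-sensing adaptor STING, by an allele that is not described in the sources used here. Mcl1Δhep Sting1-/- livers (Mcl1 Sting1 DKO) came from a cross of both lines. The liver transcriptomes used to compare Mcl1Δhep with WT are described as those of 2-month-old mice. Mice of these genotypes and Mcl1Δhep Sting1-/- mice were studied at 2 and 12 months, and the age of the sequenced livers without Sting1 is not stated.

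MCL1 is a prosurvival protein of the BCL2 family that holds the effectors BAX and BAK in check at the mitochondrial outer membrane. BH3-only proteins are the upstream triggers of that pathway: each carries a short BH3 helix that docks into the groove of prosurvival proteins, and BID, BIM and PUMA can also engage BAX and BAK directly. Hepatocytes depend on MCL1 together with BCL-xL, and BH3-only proteins set how close a hepatocyte stands to cytochrome c release.

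The coding bases of the BH3 core are shown because this helix is the feature that the family shares and for which it is named. Each line gives 54 coding bases, 5′ to 3′, read from the GRCm39 genome through the GENCODE vM39 canonical transcript. Capitals mark the codons of the conserved leucine and of the conserved aspartate of the core.
Bid: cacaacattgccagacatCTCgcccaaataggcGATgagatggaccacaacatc
Bcl2l11: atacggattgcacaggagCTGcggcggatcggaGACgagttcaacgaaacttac
Bbc3: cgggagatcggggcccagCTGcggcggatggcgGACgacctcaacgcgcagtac
Bad: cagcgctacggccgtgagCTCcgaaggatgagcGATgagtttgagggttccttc
Bmf: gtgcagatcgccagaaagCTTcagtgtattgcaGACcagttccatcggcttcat
Bik: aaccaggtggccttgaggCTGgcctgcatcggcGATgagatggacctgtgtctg

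These stretches lie in coding exons at chr6:120874241-120874294 on the minus strand (Bid), chr2:127989052-127989105 on the plus strand (Bcl2l11), chr7:16047680-16047733 on the plus strand (Bbc3), chr19:6928142-6928195 on the plus strand (Bad), chr2:118375572-118375625 on the minus strand (Bmf) and chr15:83427267-83427320 on the plus strand (Bik). The core was searched as leucine, any 2 residues, isoleucine or methionine, a small residue (glycine, alanine or serine) and aspartate. Each of these 6 coding sequences held 1 match, and Pmaip1, whose bases are not shown, held 2. The pattern is short, and 702 of 21593 canonical coding transcripts (3.25%) held it.

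The libraries held 28826367 to 45266387 counts on genes. Mcl1 fell in every library labelled as deleted. Its normalised level was 98.7 ± 7.39 CPM (counts scaled to library size; mean ± SD, n = 3) in WT and 81.8 ± 7.20 CPM in Sting1-/- livers. It was 28.96 ± 4.58 CPM in Mcl1Δhep livers and 22.3 ± 3.96 CPM in Mcl1Δhep Sting1-/- livers. The libraries labelled as lacking Sting1 kept Sting1 counts (1.86 ± 0.78 CPM in Sting1-/- and 2.26 ± 0.32 CPM in Mcl1Δhep Sting1-/- livers, against 2.36 ± 0.22 CPM in WT and 4.75 ± 1.17 CPM in Mcl1Δhep livers). Sting1 had a log2 fold change of -0.34 in Sting1-/- against WT (adjusted p = 0.998). In Mcl1Δhep Sting1-/- against Mcl1Δhep livers it was -1.07 (unadjusted p = 0.0033, adjusted p = 0.134). The mean counts pointed the way of the label in both pairs but passed in neither. RNA counts do not measure the protein. The paper reports that a Western blot established the knockout in Sting1-/- mice. It also reports that their splenocytes did not phosphorylate the transcription factor IRF3 after a STING agonist. Sting1-/- replicate 3, at 2.70 CPM of Sting1, stood above all 3 WT livers (2.11 to 2.53 CPM). Mcl1Δhep replicate 3 held 1373 CPM on skeletal muscle markers, against at most 7.68 CPM in the other libraries. Y-linked genes were expressed in WT replicates 2 and 3 and in Mcl1Δhep Sting1-/- replicate 1 only. No Mcl1Δhep or Sting1-/- liver is among these, so sex and genotype are partly mixed in Mcl1Δhep against WT and in Sting1-/- against WT. The other comparisons also set unequal shares of such livers against each other. With Y-linked expression as a covariate, 9.96% of all genes passed edgeR's test in Mcl1Δhep against WT, compared with 20.2% without it. Because the tissue was bulk liver, fewer cells of a type and less RNA per cell cannot be told apart.

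In WT liver the family was led by Bmf and Bad. Levels between genes were compared as TPM, in which counts are scaled by gene length and by library. Bmf was at 13.6 ± 1.25 TPM (SD, n = 3) and Bad at 8.78 ± 0.83 TPM. Bid followed at 3.57 ± 0.48 TPM and Bbc3 at 3.33 ± 0.34 TPM, and their spreads overlapped. Bcl2l11 was at 2.22 ± 0.61 TPM and Bik at 1.56 ± 0.08 TPM, again with overlapping spreads. Pmaip1 was lowest at 0.79 ± 0.06 TPM. With the longest transcript as the length, Bad (13.2 ± 1.30 TPM) stood above Bmf (11.5 ± 0.98 TPM) in WT. On that length the Bmf mean in Mcl1Δhep livers (3.64 ± 2.24 TPM) was below those of Bid and Bbc3 (4.86 ± 0.76 and 4.54 ± 1.06 TPM), and in Mcl1Δhep Sting1-/- livers (4.66 ± 2.71 TPM) below that of Bbc3 (5.35 ± 2.28 TPM).

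The order differed in the other genotypes. In Mcl1Δhep livers Bad was at 12.7 ± 2.36 TPM and stood apart from Bmf at 4.15 ± 2.55 TPM, whose spread overlapped that of Bbc3 at 3.29 ± 0.73 TPM. Bid was at 2.93 ± 0.52 TPM there, while Bcl2l11 (1.70 ± 0.36 TPM), Pmaip1 (1.23 ± 0.71 TPM) and Bik (1.05 ± 0.34 TPM) could not be ordered beyond their spread. In Sting1-/- livers Bmf (11.4 ± 8.65 TPM) and Bad (9.96 ± 2.30 TPM) overlapped, and the remaining genes lay between 0.97 TPM for Pmaip1 and 3.07 TPM for Bbc3. In Mcl1Δhep Sting1-/- livers the means ran from Bad at 9.57 ± 0.92 TPM through Bmf at 5.49 ± 3.22 TPM and Bbc3 at 3.996 ± 1.71 TPM to Bik at 0.95 ± 0.19 TPM.

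The 7 genes summed to 33.9 ± 1.09 TPM in WT, 31.6 ± 10.4 TPM in Sting1-/-, 27.1 ± 3.14 TPM in Mcl1Δhep and 25.7 ± 5.70 TPM in Mcl1Δhep Sting1-/- livers. Bmf made up 40.2% ± 2.74 of this sum in WT and 33.1% ± 14.1 in Sting1-/- livers. Its share was 14.9% ± 7.76 in Mcl1Δhep and 20.4% ± 7.25 in Mcl1Δhep Sting1-/- livers. Bad made up 25.9% ± 2.31 of the sum in WT and 46.9% ± 6.52 in Mcl1Δhep livers. With the longest transcript as the length, the Bmf share was 28.8% ± 2.41 in WT and 9.52% ± 5.30 in Mcl1Δhep livers, and that of Bad 33.0% ± 2.49 and 52.9% ± 6.17. These shares are given as a description without a test.

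**Figure D1:**
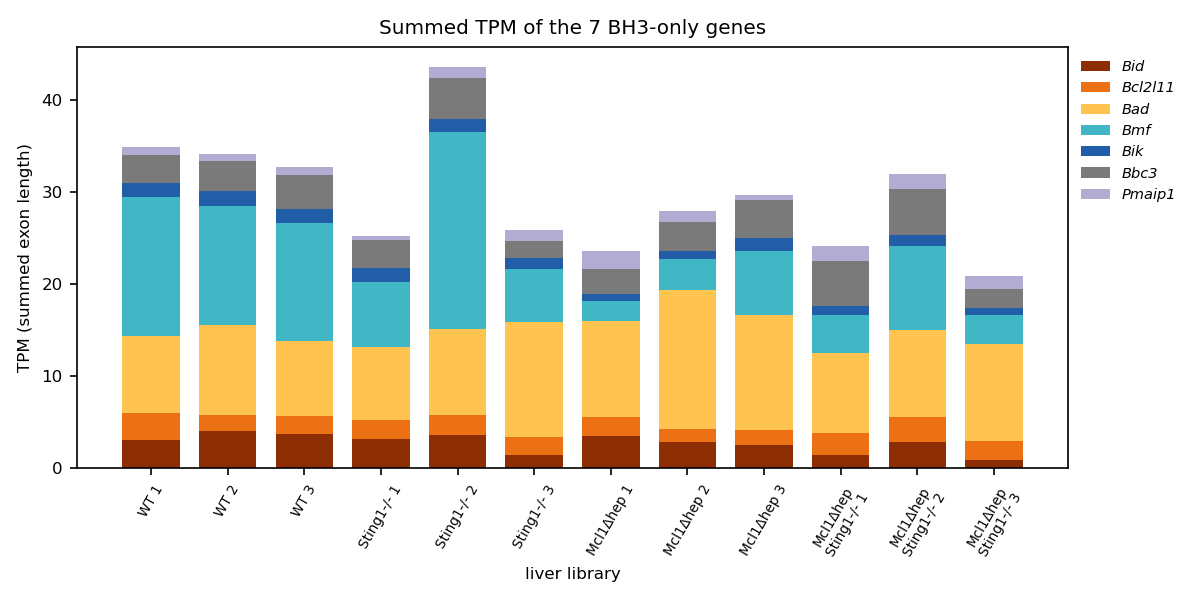
Stacked bars give the TPM (summed exon length) of the 7 BH3-only genes in each of the 12 liver libraries. The Bmf segment takes 38.0 to 43.3% of the bar in the 3 WT livers and 9.18 to 23.7% in the 3 Mcl1Δhep livers, and Sting1-/- replicate 2 has the tallest bar at 43.6 TPM.

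The first question was what loss of Mcl1 in hepatocytes did to the BH3-only genes. Bmf fell with Mcl1 deletion when both Sting1 backgrounds were averaged, and no other member passed that test. In Mcl1Δhep against WT livers alone, 0 of 7 members had an adjusted p under 0.05 in edgeR's quasi-likelihood test with Benjamini-Hochberg adjustment over all 15070 genes, while 20.2% of all tested genes did. Bmf and Bad had an unadjusted p under 0.05 in that comparison, as had 36.9% of all genes, and DESeq2 called 1 member, Bad, and 25.8% of all genes. In Mcl1Δhep Sting1-/- against Sting1-/- livers 0 of 7 were called, beside 0.803% of all genes, with 1 member (Bik) and 11.3% of all genes at an unadjusted p under 0.05, and 0 members and 3.15% of all genes by DESeq2. The average of both effects compared 6 livers with 6 and called 1 of 7, beside 16.7% of all genes. Bmf and Bik had an unadjusted p under 0.05 in it, as had 32.4% of all genes, and DESeq2 called both and 21.3% of all genes.

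The median log2 fold change of the 7 genes was -0.23 in Mcl1Δhep against WT, where that of all tested genes was -0.005. In the pair without Sting1 it was -0.21, against -0.009 for all genes. Libraries of both groups did not overlap for 1 member, Bmf, in Mcl1Δhep against WT, where this held for 33.3% of all genes. In Mcl1Δhep Sting1-/- against Sting1-/- livers it held for Bik, which was lower, and Pmaip1, which was higher, and for 22.3% of all genes.

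**Figure D2:**
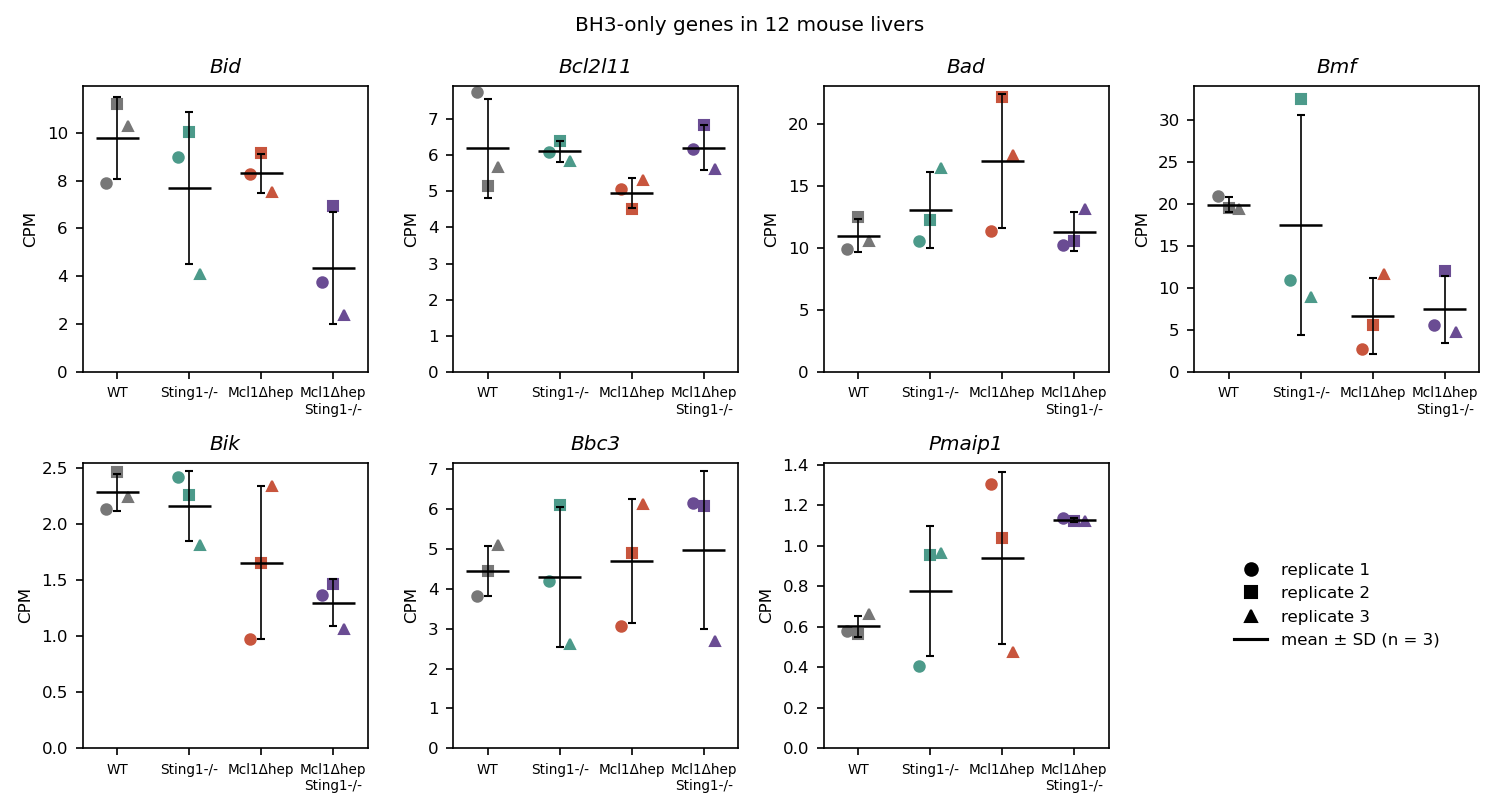
Each panel shows one BH3-only gene, with the normalised level in CPM on the vertical axis and the 4 genotypes on the horizontal axis; symbols are single livers, and black lines are the mean and SD of 3. The 3 WT livers lie between 19.4 and 20.9 CPM for Bmf, above all 3 Mcl1Δhep livers at 2.75 to 11.6 CPM, and the 3 Sting1-/- livers spread from 8.90 to 32.6 CPM.

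**Figure D3:**
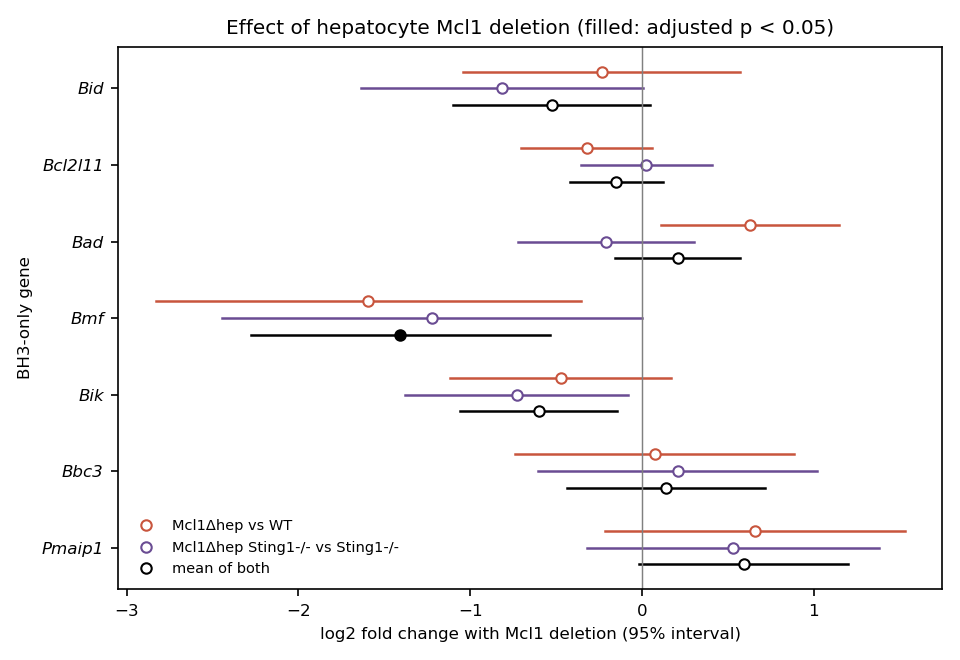
Points are log2 fold changes of the 7 genes with Mcl1 deletion, with 95% intervals, for Mcl1Δhep against WT, for Mcl1Δhep Sting1-/- against Sting1-/- and for the mean of both; filled points have an adjusted p under 0.05. Bmf lies farthest from 0 on the left in all 3 comparisons, and the mean of both for Bmf is the single filled point.

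Bid links death receptors to mitochondria, because caspase-8 cleaves its protein into the active fragment. It measured 7.89, 11.2 and 10.3 CPM in the 3 WT livers and 8.25, 9.15 and 7.53 CPM in the 3 Mcl1Δhep livers, and the groups overlapped. This gave a log2 fold change of -0.23 (SE 0.37, 95% interval -1.04 to 0.57, adjusted p = 0.678). Sting1-/- livers had 8.99, 10.03 and 4.08 CPM and Mcl1Δhep Sting1-/- livers 3.74, 6.94 and 2.38 CPM. Replicate 3 was the lowest library in both of these groups, which overlapped. Deletion gave -0.82 on the log2 scale (SE 0.38, -1.64 to 0.005, adjusted p = 0.444). Bid exons share 3059 bases, 31.2% of their length, with Bcl2l13 on the opposite strand. The use of strand in counting is not given in the sources used here, so reads from both genes there may not be told apart, and Bcl2l13 itself had an adjusted p of 0.945 and 0.939 in the same comparisons.

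Bcl2l11 encodes BIM, which binds all prosurvival family members. Its levels were 7.76, 5.16 and 5.68 CPM in WT and 5.07, 4.50 and 5.31 CPM in Mcl1Δhep livers. The Mcl1Δhep livers sat at the low end, with 1 of them above the lowest WT liver. Their log2 fold change was -0.32 (SE 0.18, -0.71 to 0.06, adjusted p = 0.203). In Sting1-/- livers Bcl2l11 was at 6.08, 6.395 and 5.84 CPM and in Mcl1Δhep Sting1-/- livers at 6.18, 6.85 and 5.61 CPM. The range of the former lay within that of the latter, and the log2 fold change was 0.03 (SE 0.17, -0.35 to 0.41).

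Bbc3 encodes PUMA, a direct target of p53 that also binds every prosurvival member. WT livers held 3.82, 4.45 and 5.08 CPM and Mcl1Δhep livers 3.06, 4.89 and 6.14 CPM. The deleted livers spanned the whole WT range. On the log2 scale the change was 0.07 (SE 0.37, adjusted p = 0.907), and its 95% interval of -0.74 to 0.89 leaves room for a ratio of 0.599 as well as of 1.85. Without Sting1 the levels were 4.19, 6.10 and 2.61 CPM with Mcl1 and 6.15, 6.07 and 2.68 CPM after its deletion. Here the estimate was 0.21 on the log2 scale (SE 0.37, -0.60 to 1.02).

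Bad binds BCL2, BCL-xL and BCL-w but not MCL1, and survival kinases keep it phosphorylated and bound to 14-3-3 proteins. Its 3 WT livers held 9.95, 12.5 and 10.5 CPM and its 3 Mcl1Δhep livers 11.3, 22.1 and 17.5 CPM. Mcl1Δhep replicates 2 and 3 stood above all WT livers and replicate 1 among them. The log2 fold change was 0.63 (SE 0.24, 0.11 to 1.15), with an adjusted p of 0.0781 that did not pass. Without Mcl1Δhep replicate 1 the log2 fold change was 0.85 and the adjusted p 0.00985, in a fit that called 34.1% of all genes, and DESeq2 gave 0.65 with an adjusted p of 0.0498. In the pair without Sting1, Bad was at 10.5, 12.2 and 16.5 CPM and at 10.3, 10.6 and 13.1 CPM, overlapping, with a log2 fold change of -0.21 (SE 0.24, -0.72 to 0.31).

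The libraries with the most Bad also stood apart in another feature. Small structured RNAs took a share of the counts (small nuclear, nucleolar and Cajal body RNAs and the like) that ran from 0.19 to 2.77% per library. The 3 libraries with the highest Bad level, Mcl1Δhep replicates 2 and 3 and Sting1-/- replicate 3, were the 3 with the highest share, at 2.77, 1.55 and 0.98%. Among the 9 other livers the highest Bad levels were 13.1 CPM at a share of 0.49% and 12.5 CPM at 0.21%. With this share as a covariate, the Bad log2 fold change in Mcl1Δhep against WT was 0.06 (adjusted p = 0.917). The same covariate took the calls among all genes in that comparison from 20.2% to 3.22%. The part of the small RNA share in the Bad level was not tested beyond this fit. Bad exons share 914 bases, 20.4% of their length, with Gpr137 on the opposite strand, for which the log2 fold change was -0.32 (adjusted p = 0.279).

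**Figure D4:**
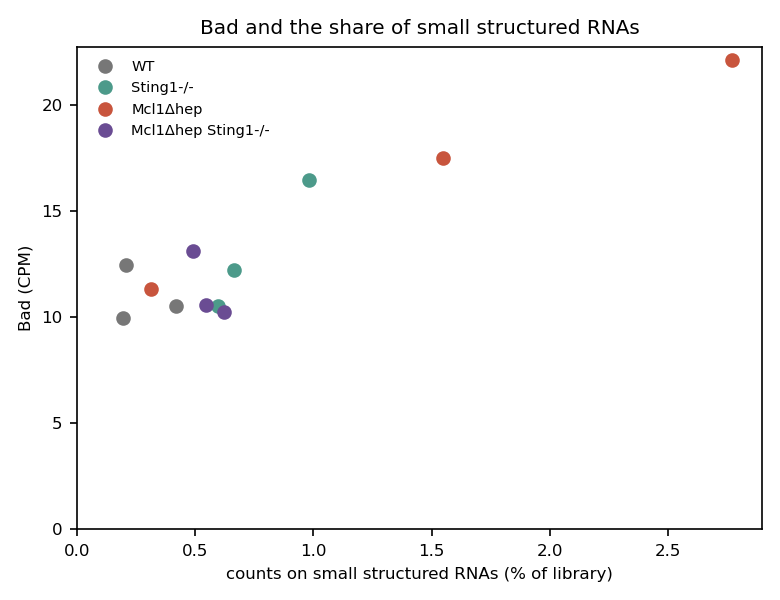
Each point is a liver, with the percentage of its counts on small structured RNAs on the horizontal axis and the Bad level in CPM on the vertical axis, coloured by genotype. The 3 points above 16 CPM have shares of 0.98 to 2.77%, and the 9 others have shares of 0.19 to 0.66%.

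Bmf is held at the cytoskeleton by a dynein light chain and released when cells detach or are stressed. It was at 20.9, 19.5 and 19.4 CPM in WT and at 2.75, 5.60 and 11.6 CPM in Mcl1Δhep livers. All Mcl1Δhep livers lay below all WT livers, and they spread over a wider range. The log2 fold change was -1.59 (SE 0.57, -2.83 to -0.36, adjusted p = 0.0658), a ratio of 0.331. It passed without Mcl1Δhep replicate 3, the library with muscle transcripts (-2.27, adjusted p = 0.0277), or without Sting1-/- replicate 2 (-1.60, adjusted p = 0.0406), in fits that called 16.7% and 16.9% of all genes. Sting1-/- livers had 10.9, 32.6 and 8.90 CPM and Mcl1Δhep Sting1-/- livers 5.61, 12.1 and 4.71 CPM. These groups overlapped, with replicate 2 the highest in each. For this pair it was -1.22 (SE 0.56, -2.45 to 0.001, adjusted p = 0.441). It was -0.41 without Sting1-/- replicate 2.

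Averaged over both backgrounds, Bmf fell by 1.41 on the log2 scale (SE 0.40, 95% interval -2.28 to -0.54, adjusted p = 0.0319), a ratio of 0.377 with an interval of 0.206 to 0.689. The call was lost when any one of 7 libraries was left out. The adjusted p rose to 0.0516, 0.0564 and 0.0569 without WT replicates 1, 2 and 3, to 0.0837 without Sting1-/- replicate 2, to 0.078 without Mcl1Δhep replicate 2, and to 0.0755 and 0.0696 without Mcl1Δhep Sting1-/- replicates 1 and 3. It stayed under 0.05 in the other 5 of these 12 fits. The log2 fold change lay between -1.74 and -1.0 in all 12. With the small RNA share as a covariate it was -1.59 with an adjusted p of 0.0908, in a fit that called 9.91% of all genes.

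Bik, a BH3-only protein of the endoplasmic reticulum, was at 2.14, 2.46 and 2.24 CPM in WT and at 0.97, 1.65 and 2.34 CPM in Mcl1Δhep livers. Mcl1Δhep replicates 1 and 2 were below WT and replicate 3 within it. A log2 fold change of -0.47 resulted (SE 0.30, -1.12 to 0.17, adjusted p = 0.265). Sting1-/- livers had 2.42, 2.26 and 1.81 CPM and Mcl1Δhep Sting1-/- livers 1.37, 1.46 and 1.07 CPM, without overlap. There it was -0.73 (SE 0.30, -1.38 to -0.08, adjusted p = 0.365). Averaged, it was -0.60 (SE 0.21, -1.06 to -0.14, adjusted p = 0.0701). It passed without Mcl1Δhep replicate 3 (-0.77, adjusted p = 0.0198), where 17.5% of all genes did, and in DESeq2 (-0.59, adjusted p = 0.0499).

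Pmaip1 encodes NOXA, which binds MCL1 and A1 with preference and is the member most closely tied to MCL1 turnover. It was the scarcest, with 14 to 63 reads per library. WT livers held 0.58, 0.56 and 0.66 CPM and Mcl1Δhep livers 1.30, 1.04 and 0.47 CPM. Mcl1Δhep replicate 3 was below all WT livers and the other 2 above them. Deletion gave a log2 fold change of 0.66 (SE 0.40, -0.22 to 1.53, adjusted p = 0.255). Without Sting1, the levels were 0.41, 0.96 and 0.97 CPM with Mcl1 and 1.14, 1.12 and 1.12 CPM after its deletion, and did not overlap, with a log2 fold change of 0.53 (SE 0.39, -0.32 to 1.38, adjusted p = 0.703). The averaged log2 fold change was 0.59 (SE 0.28, -0.02 to 1.201, adjusted p = 0.165).

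The second question was whether loss of Sting1 altered the family in livers without Mcl1. In Mcl1Δhep Sting1-/- against Mcl1Δhep livers edgeR called 0 of the 7 genes and 0% of all genes, with 2 members (Bid and Bad) and 20.6% of all genes at an unadjusted p under 0.05, and DESeq2 called 0 members and 4.51% of all genes. Mcl1Δhep replicate 1 decided that 0%, since without it edgeR called 3108 genes, 20.2% of those tested, and 1 member, Bad. Without any other single library it called 0 to 6 genes. Bid had a log2 fold change of -0.93 (SE 0.38, -1.75 to -0.11, adjusted p = 0.202), and all 3 livers without both genes (2.38 to 6.94 CPM) lay below the Mcl1Δhep livers (7.53 to 9.15 CPM). Bcl2l11 had a log2 fold change of 0.32 (SE 0.18, -0.06 to 0.71, adjusted p = 0.307), and its 3 livers without both genes lay above the Mcl1Δhep livers. Of all genes, 18.2% did not overlap in this comparison. Bad had a log2 fold change of -0.59 (SE 0.24, -1.10 to -0.07, adjusted p = 0.199), and without Mcl1Δhep replicate 1 it was -0.81 with an adjusted p of 0.0197, beside the 20.2% of all genes called in that fit. That library had a small RNA share of 0.31%, against 2.77 and 1.55% in Mcl1Δhep replicates 2 and 3. Under the 8 alternatives that left out no single library, the Bad log2 fold change ran from -0.6 to -0.125 and passed in 0. For Bmf, Bik, Bbc3 and Pmaip1 the log2 fold changes were 0.18, -0.34, 0.08 and 0.25, with 95% intervals that all held 0.

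With Mcl1 intact, loss of Sting1 was compared with WT. None of the 7 genes was called by edgeR, with 0% of all genes, 5.45% of all genes and 0 members at an unadjusted p under 0.05, and DESeq2 called 0.325% of all genes and 0 members. The log2 fold changes ran from -0.35 for Bid (SE 0.37, -1.15 to 0.46) to 0.37 for Pmaip1 (SE 0.40, -0.50 to 1.25), all with an adjusted p of 0.998. No member had groups without overlap, against 12.5% of all genes. The Bmf means were 19.9 CPM in WT and 17.5 CPM in Sting1-/- livers, with an SD of 13.1 CPM in Sting1-/- livers against 0.85 CPM in WT.

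Whether the effect of Mcl1 deletion differed between the backgrounds was tested as an interaction. edgeR called 0 members and 0% of all genes, and DESeq2 0 members and 1.13% of all genes. Bad was the 1 member with an unadjusted p under 0.05, which 14.4% of all genes had. Its log2 fold change was 0.63 with Sting1 and -0.21 without, a difference of -0.84 (SE 0.33, -1.57 to -0.11, unadjusted p = 0.0276, adjusted p = 0.314). Without Mcl1Δhep replicate 1 the difference was -1.06 with an adjusted p of 0.0362, in a fit that called 1574 genes, 10.2% of all. Under the 7 alternatives that kept every library, the difference for Bad ran from -0.845 to -0.171 and passed in 0. For Bid the difference was -0.58 (SE 0.53, -1.73 to 0.57).

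The rest of the mitochondrial pathway was read beside the BH3-only genes on 8 lists of related genes, chosen, like the members, with earlier results of these data known. In Mcl1Δhep against WT livers edgeR called 17 of the 54 tested genes on these lists, Mcl1 itself among them, beside 20.2% of all genes. On the list of p53 and its targets 3 of 10 genes rose. These were Cdkn1a, which arrests the cell cycle (log2 fold change 3.90, SE 0.64, adjusted p = 0.00313), Phlda3, an inhibitor of AKT (1.98, SE 0.34, adjusted p = 0.00392), and the TNF receptor family member Eda2r (1.5, SE 0.25, adjusted p = 0.00342). Bbc3 and Pmaip1, also known targets of p53, did not pass in the same comparison (0.07 and 0.66), and neither did Mdm2 (0.21). The 3 calls held in each of the 12 fits that left out a library, but that of Phlda3 was lost with the small RNA share as a covariate (1.33, adjusted p = 0.079). In livers without Sting1, where 0.803% of all genes were called, Phlda3 (1.74, adjusted p = 0.0448) and Eda2r (1.73, adjusted p = 0.0206) rose. The Phlda3 call was lost in all but 2 of those 12 fits, which left out Mcl1Δhep replicate 1 or Mcl1Δhep Sting1-/- replicate 3. The Eda2r call was lost without any of the 3 Sting1-/- livers or without Mcl1Δhep Sting1-/- replicate 1 or 2 (log2 fold changes of 1.57 to 1.82). Those fits called only 1 to 3 genes in all, against 121 in the main fit.

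Among the 7 prosurvival genes, 3 rose and 2 fell in Mcl1Δhep against WT livers, where 20.2% of all genes were called. Those that rose were paralogs of A1, a partner of NOXA and BIM: Bcl2a1b (2.50, adjusted p = 0.00384), Bcl2a1d (2.49, adjusted p = 0.0277) and Bcl2a1a (1.74, adjusted p = 0.0228). Near-identical copies share reads, so that their separate values are uncertain. Mcl1 fell by 1.77. Bcl2l2, which encodes BCL-w and was named after its value was seen, fell by 0.51 (adjusted p = 0.0287). The calls of Bcl2a1d (without WT replicate 1 or 2 or Mcl1Δhep replicate 2, adjusted p 0.0767 to 0.123) and of Bcl2a1a and Bcl2l2 (without WT replicate 2 or 3 or Mcl1Δhep replicate 2 or 3, adjusted p 0.0541 to 0.113) depended on single libraries.

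In Mcl1Δhep against WT livers, with 20.2% of all genes called, 1 of the 3 effectors rose, Bax (0.97, SE 0.26, adjusted p = 0.0255). The call was lost without WT replicate 1 or 2 or Mcl1Δhep replicate 2 (adjusted p of 0.0745, 0.0797 and 0.116), and with the small RNA share as a covariate the log2 fold change was 0.29 (adjusted p = 0.486). In the death receptor arm that cleaves Bid, 1 of 7 genes rose, Tnfrsf10b, the mouse receptor for TRAIL (3.46, SE 0.64, adjusted p = 0.00549), a call held in all 12 fits. Of 9 apoptosome and executioner genes, Apaf1, the scaffold that activates caspase-9, rose (0.69, adjusted p = 0.0481) and the caspase inhibitor Xiap fell by 0.65 (adjusted p = 0.0158). The Apaf1 call held in 2 of 12 fits, without Mcl1Δhep replicate 3 or Mcl1Δhep Sting1-/- replicate 3. The Xiap call was lost without WT replicate 2 (adjusted p = 0.0717) or Mcl1Δhep replicate 2 (adjusted p = 0.0575).

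The list of stress and FOXO genes includes transcription factors that can drive BH3-only genes. Its genes moved in both directions in Mcl1Δhep against WT livers, where 20.2% of all genes were called. Of 9 on the list, Jun (1.497, SE 0.35, adjusted p = 0.0149) and Ddit3, which encodes CHOP (0.95, SE 0.27, adjusted p = 0.0314), rose. Foxo3, a known activator of Bcl2l11, Bbc3 and Bmf, fell by 0.87 (SE 0.17, adjusted p = 0.00706), a call lost with the small RNA share as a covariate (-0.76, adjusted p = 0.108). The Jun call was lost without WT replicate 3 (adjusted p = 0.0605) and the Ddit3 call without any one WT liver or Mcl1Δhep replicate 2 (adjusted p 0.0591 to 0.128). Among 6 genes for proteins that hold BH3-only proteins, Dynll1, the dynein light chain that binds BIM, rose (0.99, adjusted p = 0.0223) and Dynll2, which binds BMF, fell by 0.61 (adjusted p = 0.0256). Neither call held without WT replicate 2, WT replicate 3 or Mcl1Δhep replicate 2, and that of Dynll2 was also lost without Mcl1Δhep replicate 3 (adjusted p 0.0721 to 0.0985). Of 4 other genes with a BH3-like motif, 3 were tested and 0 were called by edgeR or DESeq2 in any comparison. Bnip3 in the pair without Sting1 was the 1 case with an unadjusted p under 0.05 (0.0452).

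**Figure D5:**
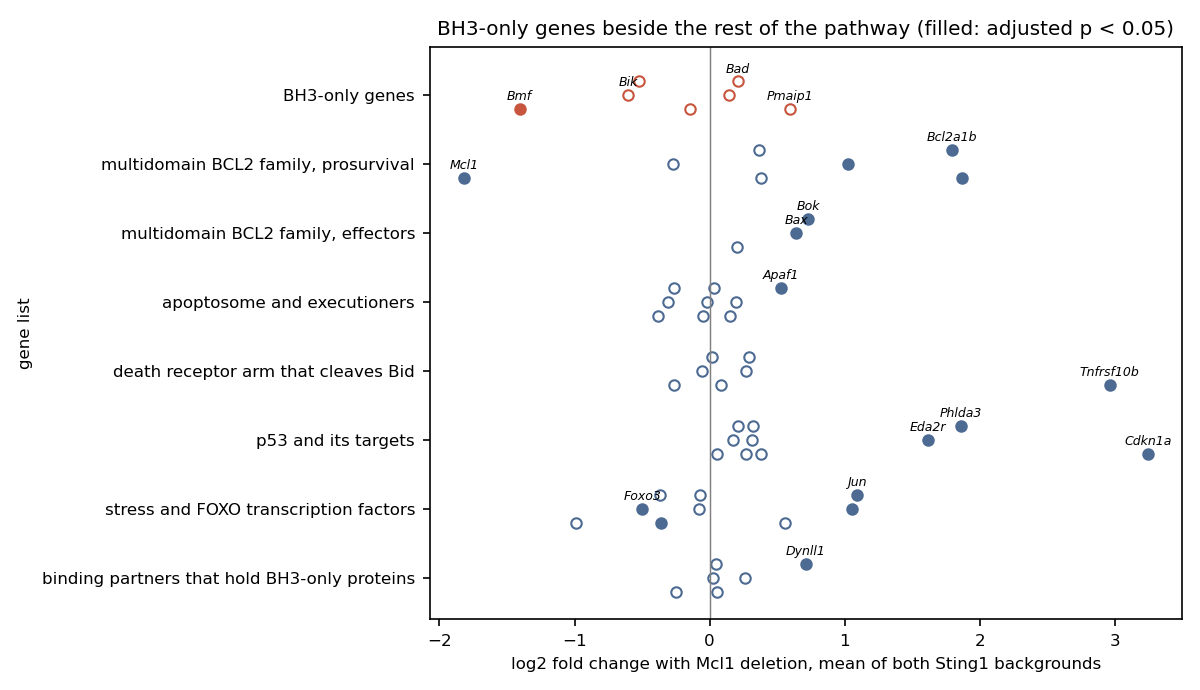
Each point is a gene, on the BH3-only list in the top line or on one of 7 pathway lists under it, placed by its log2 fold change with Mcl1 deletion averaged over both Sting1 backgrounds; filled points have an adjusted p under 0.05 and selected genes carry their symbols. Bmf at -1.41 is the 1 filled BH3-only gene, Mcl1 itself lies at -1.82, and Cdkn1a at 3.24 and Tnfrsf10b at 2.96 lie farthest to the right.

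Averaged over both backgrounds, where 16.7% of all genes were called, 3 of 10 genes of p53 and its targets rose, 3 of 7 prosurvival genes rose and 1 fell, 2 of 3 effectors rose, and 1 of 7 death receptor genes and 1 of 9 apoptosome genes rose. Of 9 stress and FOXO genes 2 rose and 2 fell, and 1 of 6 holding proteins rose. The calls of Cdkn1a (3.24), Phlda3 (1.86), Eda2r (1.61), Tnfrsf10b (2.96), Bcl2a1b (1.79), Jun (1.09), Foxo3 (-0.50) and Mcl1 (-1.82) held in all 12 fits that left out a library. With the small RNA share as a covariate that of Foxo3 was lost (-0.45, adjusted p = 0.0625). The calls of Bax, Bok, Apaf1, E2f1, Foxo4, Dynll1, Bcl2a1a and Bcl2a1d were each lost in 2 to 10 of them. In Mcl1Δhep Sting1-/- against Mcl1Δhep livers edgeR called 0 of the 54 tested genes on these 8 lists, with 13 at an unadjusted p under 0.05 (20.6% of all genes) and 1 called by DESeq2. In the interaction it called 0 of 54, with 8 at an unadjusted p under 0.05 (14.4% of all genes) and 0 called by DESeq2.

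Markers of other cells moved in Mcl1Δhep against WT livers, beside the Bmf and Bad estimates. In this comparison 20.2% of all genes were called. Of the cycling cell markers 5 of 5 were higher, with a summed level of 40.98 to 133 CPM against 9.34 to 10.2 CPM. Of the monocyte and neutrophil markers 5 of 5 tested were higher (15.1 to 36.0 CPM against 4.57 to 5.91 CPM), as were 4 of 8 macrophage markers (854 to 1007 CPM against 476 to 714 CPM) and 3 of 5 stellate cell markers (534 to 570 CPM against 333 to 484 CPM). Of these 3, 1 was Des, which muscle also expresses. It was at 7.61, 9.45 and 69.9 CPM in Mcl1Δhep livers, the last in the library with muscle transcripts, and without that library 1 of 5 stellate cell markers was called and Des was not (0.76, adjusted p = 0.0588). Of 6 hepatocyte markers 1 was lower, Cyp2e1 (-1.68, adjusted p = 0.0161), and their summed levels overlapped. T and NK cell markers had 1 of 6 tested higher, Cd8a (1.89, adjusted p = 0.0174). B cell (0 of 4), cholangiocyte (0 of 5) and sinusoidal endothelial (0 of 4) markers were not called. With the small RNA share as a covariate, no call was left on the marker lists of other cell types. The cycling cell markers were still called, 5 of 5, beside 3.22% of all genes. The part of other cells and of cycling in the values of the BH3-only genes was not tested.

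Over the 12 livers, Bmf and Bik varied together (Pearson's r = 0.84, Spearman's rho = 0.70), and Bik and Pmaip1 in opposite directions (r = -0.83, rho = -0.94). These are descriptions over points that share a normalisation and 4 genotypes, and Pmaip1 rests on few reads. Among genes with a mean of at least 1 CPM, those most like Bmf by Pearson's r were Ugt2a3 (0.95), Tlcd1 (0.95) and Abhd15 (0.92). For Bad they were Ndufb2 (0.96), Gm42420 and Mrpl28, and for Pmaip1 Akna (0.97), Il22ra1 (0.94) and Itga4 (0.88). By Spearman's rho, 0 of these 3 genes were again among the first 3 for Bmf, 1 for Bad and 2 for Pmaip1.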

How the data were processed

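Total RNA of 12 mouse livers was sequenced, and the authors deposited raw, unnormalized counts for each Ensembl gene. The submitters' processing notes name STAR, featureCounts and GRCm39, and versions, annotation and the use of strand are not given in the sources used here. The labels name the RNeasy Plus Mini kit, the methods the RNeasy Micro kit. Per library, 28826367 to 45266387 counts fell on genes, and 3 livers per group limit the precision. The labels do not state that replicates are separate animals, and p-values measure the spread between these samples.

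The 7 members and all lists were chosen with earlier results of these data known. CPM with TMM factors and log2 fold changes came from edgeR 4.0.16 in R 4.3.3 (filterByExpr, glmQLFit, glmQLFTest). All 12 libraries were in 1 model, with Benjamini-Hochberg adjustment over 15070 genes at 0.05. Correlations between genes and between same-numbered livers used log2 CPM with a prior count of 2. Levels between genes used TPM with summed GENCODE vM39 exon lengths. Of 40551 identifiers, 39533 had a length. Named genes were all members, up to 4 called genes with the largest change per list, and the 3 genes most like a member. DESeq2 1.42.0, other scalings, filters, covariates and fits without single libraries were alternatives. On simulated counts for 14868 genes, edgeR recovered 186 of 193 genes changed by 2 on the log2 scale in Mcl1Δhep against WT. The simulation gave every gene the same spread and held no smaller change. It therefore does not show how often changes as small as those of the members would be found. No pair of replicates agreed within sampling noise (chi-square per degree of freedom of 40.9 to 290).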

Additional observations from a re-analysis of the deposited data

How the results depend on the processing

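Of the log2 fold changes of BH3-only genes given above, 598 of those recomputed under an alternative kept direction and side of the threshold, 9 lost and 8 gained the call, and 16 changed sign, all of them small estimates that never passed. DESeq2 called 1 member in Mcl1Δhep against WT (25.8% of all genes) and 2 in the averaged effect (21.3%), where the legacy robust quasi-likelihood fit (16.8%) and the small RNA covariate (9.91%) called 0. The legacy fit gave Bmf an adjusted p of 0.0537. With the small RNA covariate, Bbc3 was -0.25 in Mcl1Δhep against WT and -0.00333 averaged, and Bad -0.0305 averaged. With Y-linked expression as a covariate, Bbc3 was -0.0629 in Mcl1Δhep Sting1-/- against Mcl1Δhep. Leaving out single libraries, the members called were 0 to 1 in Mcl1Δhep against WT, in Mcl1Δhep Sting1-/- against Mcl1Δhep and in the interaction, 0 to 2 averaged, and 0 in the other comparisons. Over these fits Bbc3 ran from -0.17 to 0.31 in Mcl1Δhep against WT, from -0.0535 to 0.547 in the pair without Sting1 and from -0.15 to 0.39 in Mcl1Δhep Sting1-/- against Mcl1Δhep. In the latter, Bmf ran from -0.35 to 0.85, Bik from -0.61 to 0.000316 and Pmaip1 from -0.0612 to 0.572, and Bcl2l11 ran from -0.0508 to 0.117 in the pair without Sting1. The causes were not tested.

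The summed TPM of the 7 genes with the longest transcript as length was 40.0 in WT, 37.3 in Mcl1Δhep and 32.7 in Mcl1Δhep Sting1-/- livers. Same-numbered livers did not deviate together (r of -0.54 to 0.25), so the numbers do not pair them. With a replicate block the members called were 1 averaged and 0 in the 5 other comparisons. Among all genes, the small RNA covariate left 485 calls in Mcl1Δhep against WT (3050 without it) and DESeq2 gave 474 in the pair without Sting1 (121 in edgeR). Leaving out single libraries, the share of all genes called ran from 7.99% to 34.1% in Mcl1Δhep against WT, from 0.0065% to 1.62% in the pair without Sting1, from 11.1% to 27.8% averaged, from 0 to 20.2% in Mcl1Δhep Sting1-/- against Mcl1Δhep, from 0 to 10.2% in the interaction and from 0 to 0.143% in Sting1-/- against WT. The small RNA covariate also ended the Mcl1Δhep against WT calls of Bcl2a1a, Bcl2a1d, Bcl2l2, Bax, Apaf1, Xiap, Phlda3, Ddit3, Foxo3, Dynll1 and Dynll2, and the averaged calls of Bcl2a1a, Bcl2a1d, Bok, Bax, Foxo3, Foxo4 and Dynll1. Y-linked expression as a covariate ended the Mcl1Δhep against WT calls of Bcl2a1a, Bcl2l2, Bax, Apaf1, Xiap, Dynll1 and Dynll2. It also ended the averaged calls of Bcl2a1a and Apaf1 and the Phlda3 call in the pair without Sting1. Pmaip1 had the fewest reads, 14 to 63 per library, and an SE of 0.40 in Mcl1Δhep against WT, where Bid and Bbc3 had 0.37. How far depth and the spread between livers each limit these values was not separated.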
